A study of Homo sapiens with 2 samples.

Results

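Integrin and laminin subunit genes were examined in U87, an established human glioblastoma cell line labelled as wild type. Cells in RPMI with 10% fetal bovine serum had been kept for 72 h in the curcumin analog CCA-1.1 or in DMSO alone. The 38 genes are all those named as integrin alpha, integrin beta or laminin subunits, a rule that uses no measured value. They comprise 26 integrin subunits (18 alpha and 8 beta) and 12 laminin chains, out of 19938 protein-coding genes in the table. There was 1 library for each treatment, so the spread between replicates is unknown and p-values were not calculated. The dose of CCA-1.1 used for sequencing is not given in the sources used here. Values are TPM, in which the reads of a transcript are scaled for its length and the size of the library, and a gene's value is the sum over its listed transcripts. Differences are CCA-1.1 minus DMSO on the log2(TPM + 1) scale, which understates the change of genes at low TPM.

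Integrins are receptors of the cell surface made of an alpha and a beta chain, and they tie the actin cytoskeleton to proteins of the extracellular matrix. The alpha chain sets much of the ligand choice, so some integrins bind collagen, some laminin and some the RGD sequence of fibronectin and vitronectin. Laminins are secreted trimers of an alpha, a beta and a gamma chain that build basement membranes, and a trimer is named after its chains (laminin-511 holds alpha5, beta1 and gamma1). Glioma cells spread along vessels and fibre tracts, and integrin contact with such matrix is part of how they move.

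Of the 38 genes, 37 were above 0 in at least 1 library and 23 had a mean of at least 1 TPM, of which 14 were integrins and 9 were laminins. A 2-fold difference was passed by 0 of the 38 genes and by 51 of all 19938 protein-coding genes (0.256%). Among the 14 integrins with a mean of at least 1 TPM, 13 were lower with CCA-1.1 and ITGAX alone was higher. The laminins were divided, with 6 chains lower and 3 higher. Of all 12041 protein-coding genes whose mean reached 1 TPM, 46.0% were lower in the CCA-1.1 library. The sign of the smallest integrin differences is fragile, since ITGAV moved from -0.02 to 0.000442 when curated transcripts alone were summed. The median difference was -0.21 over the 14 integrins and -0.06 over the 9 laminins, against 0.02 over all 12041 genes. Summed over all subunits, integrins were at 2921 TPM with DMSO and 2616 TPM with CCA-1.1, and laminins at 784 and 729.7 TPM.

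**Figure D1:**
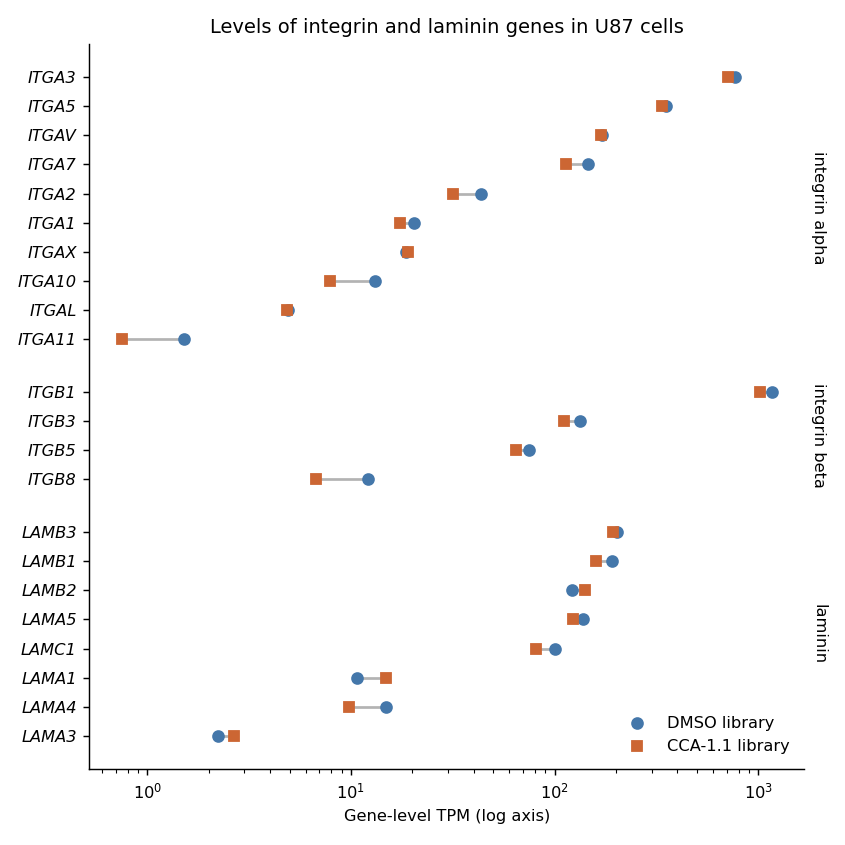
Gene-level TPM on a log axis for 22 of the 23 integrin and laminin genes whose mean reached 1 TPM, with circles for the DMSO library and squares for the CCA-1.1 library (1 library each, no error bars). ITGB1 and ITGA3 had the highest values, LAMB3 stood far above LAMA3, and LAMA1 and LAMA4 changed places.

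A smaller fold of 1.25, a threshold added after the values were seen, was passed downwards by 6 of the 23 genes (ITGB8, ITGA10, LAMA4, ITGA11, ITGA2 and ITGA7), or 26.1%. Over all 12041 genes the share was 4.53%. It was passed upwards by 1 of the 23, LAMA1, or 4.35%, against 6.84% of all genes. The 5th and 95th percentiles of all 12041 genes were -0.31 and 0.36. These shares describe this pair of libraries, and the part that growth, density or handling of the cultures had in them was not tested.

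The table was checked for the identity of the cells, because several members are named after leukocytes or epithelium. VIM and CD44, which U87 cells carry as mesenchymal genes, were at 3217 and 607 TPM with DMSO, while the astrocyte markers GFAP (0.41 TPM), S100B (0) and AQP4 (0) were near or at 0. The table lists 13 of the 44 RefSeq transcripts of CD44. The remaining glial markers OLIG2, NES and SOX2 lay between 1.45 and 7.62 TPM in both libraries. Of the leukocyte markers, CD3E was listed at 0, PTPRC was at most 0.09 TPM, CD14 and CSF1R were below 2 TPM, and CD68, which many cells hold in lysosomes, was at 494 and 397 TPM. Endothelial PECAM1, CDH5, VWF and KDR did not pass 3.41 TPM in either library. Epithelial EPCAM and CDH1 did not pass 0.18 TPM, and KRT5 and KRT14 were listed at 0.

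ITGB1, the beta chain shared by the largest group of integrins, was at 1161 TPM with DMSO and 1017 TPM with CCA-1.1, a difference of -0.19. It made up 84.1% of all integrin beta TPM with DMSO and 84.7% in CCA-1.1, so the share of this chain was nearly the same although its level was lower. ITGB1 spans chromosome 10 (build GRCh38.p14, as for all positions given) from 32900318 to 32958230. Its transcript NM_002211.4 held 99.2% of the gene in DMSO and 99.5% in CCA-1.1.

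The partners of the alphaV chain came next. ITGB3, which with alphaV forms the classic vitronectin receptor, was at 133 TPM with DMSO and 111.3 TPM with CCA-1.1 (-0.25). The lncRNA gene EFCAB13-DT, whose span overlaps that of ITGB3, was at 25.6 and 19.2 TPM. ITGB5, a further vitronectin receptor chain, was at 74.6 and 65.0 TPM (-0.20). Within ITGB5 the transcripts did not move together, since its highest transcript XM_047448087.1 was at 34.3 TPM with DMSO and 36.7 TPM with CCA-1.1, and the others together were at 40.4 and 28.3 TPM. With curated transcripts alone the difference of ITGB5 was -0.47.

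ITGB8, whose protein pairs with alphaV and takes part in the release of active TGF-beta, was the lowest in level of these beta chains and had the most negative difference of all 23 genes. It was at 12.2 TPM with DMSO and 6.70 TPM with CCA-1.1, a difference of -0.78, and the CCA-1.1 level was 55.0% of the DMSO level. Only 43 of the 12041 genes (0.357%) had a lower difference. ITGB8 lies on chromosome 7 from 20329766 to 20415754. Much of its difference sat in the predicted transcript XM_017012183.2, at 4.98 TPM with DMSO and 1.09 TPM with CCA-1.1, whereas NM_002214.3 was at 4.82 and 3.51 TPM. With curated transcripts alone the difference was -0.37. The antisense gene ITGB8-AS1 was at 0.41 and 0.57 TPM.

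The other beta chains were hardly detected. ITGB2, the leukocyte beta chain, was at 0.02 TPM with DMSO and listed at 0 in CCA-1.1. ITGB4, the hemidesmosome chain, was at 0.29 and 0.23 TPM, ITGB6, an epithelial chain, at 0.16 and 0.09 TPM, and ITGB7, a lymphocyte chain, at 0.12 TPM and 0. The table lists 2 of the 21 RefSeq transcripts of ITGB7 and 14 of the 15 of ITGB4.

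Among the alpha chains, the laminin receptor chain ITGA3 was highest, at 765 TPM with DMSO and 709 TPM with CCA-1.1 (-0.11). It held 49.7% of all integrin alpha TPM with DMSO and 50.1% in CCA-1.1. ITGA3 lies on chromosome 17 from 50056110 to 50090481. ITGA6, the other widespread laminin receptor chain, was at 0.50 and 0.68 TPM. Of the 3 alpha chains classed here as laminin-binding, ITGA3 and ITGA7 thus had a mean of at least 1 TPM.

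ITGA7, best known as the laminin receptor chain of muscle, was at 145 TPM with DMSO and 114 TPM with CCA-1.1 (-0.34). All of the net difference lay in the transcript NM_001144996.2, at 91.8 TPM with DMSO and 59.2 TPM with CCA-1.1. The other 18 listed transcripts of ITGA7 together were at 53.4 and 55.0 TPM, which is a difference of 0.04. The table lists 19 of the 27 RefSeq transcripts of this gene.

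The RGD-binding chains differed little. ITGA5, the fibronectin receptor chain, was at 353 TPM with DMSO and 338 TPM with CCA-1.1 (-0.06). ITGAV was at 171 and 169 TPM (-0.02), and ITGA5 was 2.06 times ITGAV in DMSO and 2.01 times in CCA-1.1. ITGA8 was listed at 0 in DMSO and at 0.02 TPM with CCA-1.1, and the platelet chain ITGA2B was listed at 0 and at 0.04 TPM.

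All 4 collagen-binding alpha chains were lower with CCA-1.1, and together they were at 78.8 TPM with DMSO and 57.7 TPM with CCA-1.1. ITGA1 was at 20.5 and 17.5 TPM (-0.22), and PELO, a gene within its span, was at 42.5 and 38.0 TPM. ITGA2, the collagen receptor chain also found on platelets, was at 43.6 TPM with DMSO and 31.6 TPM with CCA-1.1 (-0.45). Its coding transcript NM_002203.4 was at 40.1 and 26.1 TPM. The transcripts of ITGA2 recorded as non-coding were at 3.47 TPM with DMSO and 5.55 TPM with CCA-1.1, so their share of the gene was 7.96% and 17.5%.

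ITGA10, a collagen receptor chain known from cartilage, was at 13.2 TPM with DMSO and 7.88 TPM with CCA-1.1 (-0.67). Most of the difference lay in NM_003637.5, which was at 4.86 TPM with DMSO and listed at 0 in CCA-1.1. The other 19 transcripts of ITGA10 together were at 8.30 and 7.88 TPM, a difference of -0.07. With curated transcripts alone the gene was at -1.58. ITGA10 lies on chromosome 1 from 145891208 to 145910050. ITGA11, a collagen receptor chain of fibroblasts, was at 1.51 TPM with DMSO and 0.75 TPM with CCA-1.1, a difference of -0.52 that reached -1.0 with a pseudocount of 0.01 TPM.

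The remaining alpha chains are the leukocyte chains and the related ITGA4 and ITGA9. ITGAX was at 18.7 TPM with DMSO and 19.1 TPM with CCA-1.1 (0.03), and ITGAL was at 4.92 and 4.85 TPM (-0.02). Their only known partner chain ITGB2 was at or near 0 (above). For ITGAL, 70.3% of the DMSO value and 71.3% of the CCA-1.1 value lay in XR_950794.2, a predicted non-coding transcript. For ITGAX, most of the value lay in the coding transcript NM_000887.5, at 13.3 and 13.5 TPM. ITGAM was at 0.70 and 0.81 TPM, ITGAD at 0.21 and 0.30 TPM, ITGA4 at 0.76 and 1.03 TPM, and ITGA9 at 0.11 and 0.16 TPM. ITGAE was listed at 0 in both libraries, with 1 of its 8 RefSeq transcripts in the table.

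**Figure D2:**
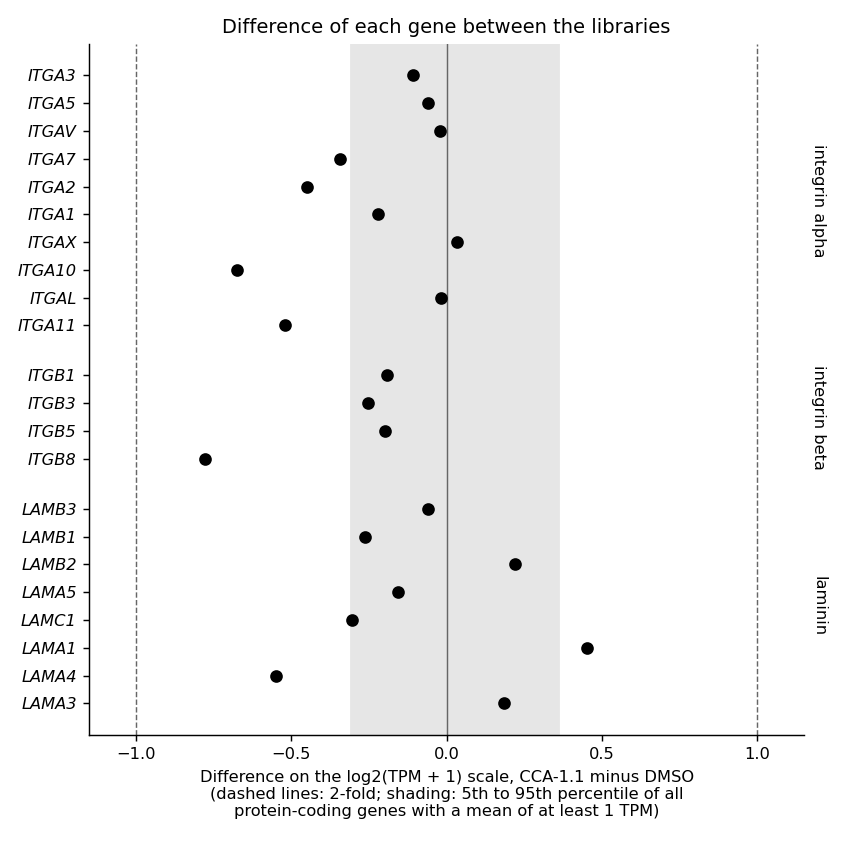
Difference between the CCA-1.1 and DMSO libraries for 22 of the 23 genes on the log2(TPM + 1) scale, 1 point per gene, with 2-fold as dashed lines and the 5th to 95th percentile of all 12041 protein-coding genes shaded (-0.31 to 0.36). No gene reached 2-fold, ITGB8 (-0.78) and ITGA10 (-0.67) lay farthest left, and LAMA1 (0.45) lay farthest right.

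Since TPM is scaled by transcript length, chains that must pair can be compared with each other, as mRNA and not as protein. Of 24 known integrin pairs, 11 had both chains at a mean of at least 1 TPM, 8 of them with ITGB1 and 4 with ITGAV, the pair of ITGAV with ITGB1 being in both counts. Alpha chains that pair with ITGB1, ITGAV left out, summed to 1344 TPM with DMSO and 1222 TPM with CCA-1.1, which was 1.16 and 1.20 times ITGB1. ITGAV was 0.778 times the sum of ITGB3, ITGB5, ITGB6 and ITGB8 in DMSO and 0.921 times in CCA-1.1. That sum was 219.8 TPM with DMSO and 183 TPM with CCA-1.1, and ITGAV itself was nearly level.

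Across the 38 genes the table lists 244 transcripts, and 10 of them passed 2-fold, 3 upwards and 7 downwards. That is against 1.17% upwards and 1.1% downwards among all 137057 transcripts of protein-coding genes. The 10 belong to ITGA10 (5), ITGA7 (3), ITGA2 (1) and ITGB8 (1), and 7 of them were listed at 0 in 1 of the libraries. In ITGA10 the 3 lower transcripts summed to 8.22 TPM with DMSO and 0 in CCA-1.1, and the 2 higher ones to 0.44 and 3.63 TPM. Of the 10, 5 had a mean of at least 1 TPM: NM_003637.5, XM_047432904.1 (2.33 TPM and 0) and XM_047432895.1 (0.44 and 2.32 TPM) of ITGA10, NM_001367993.1 of ITGA7 (5.62 and 1.41 TPM) and XM_017012183.2 of ITGB8. Kallisto divides reads shared by the transcripts of a gene by estimation, and how much of these differences is that division was not tested.

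Of the 9 laminin chains, LAMA1, LAMB2 and LAMA3 were the 3 that were higher with CCA-1.1. LAMA5, the alpha chain of most adult basement membranes, was at 137 TPM with DMSO and 123 TPM with CCA-1.1 (-0.16), and it held 83.1% and 81.7% of all laminin alpha TPM. LAMA1, the chain of early embryonic laminin, was at 10.7 TPM with DMSO and 14.9 TPM with CCA-1.1, the most positive difference of the 23 genes (0.45). Of the 12041 genes, 97.5% had a lower difference. LAMA1 has a single listed transcript, NM_005559.4, and lies on chromosome 18 from 6941742 to 7117797.

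LAMA4, the alpha chain of laminins in vessel walls and a known glioma laminin, moved the other way. It was at 14.9 TPM with DMSO and 9.83 TPM with CCA-1.1 (-0.55), and 113 of the 12041 genes had a lower difference. Its highest transcript NM_001105208.3 was at 6.0 and 2.69 TPM and the others together at 8.86 and 7.14 TPM. LAMA4 was 1.40 times LAMA1 in DMSO and 0.658 times in CCA-1.1. LAMA4 lies on chromosome 6 from 112107931 to 112254985. LAMA3, the alpha chain of epithelial laminin, was at 2.23 and 2.67 TPM (0.18). Nearly all of this lay in predicted transcripts, led by XM_017025743.1 at 1.76 and 1.91 TPM. The difference of 0.07 with curated LAMA3 transcripts alone says little, since none of them passed 0.03 TPM in either library. LAMA2, the muscle and peripheral nerve chain, was at 0.13 and 0.18 TPM.

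The beta1 and beta2 chains drew closer. LAMB1 was at 192 TPM with DMSO and 160 TPM with CCA-1.1 (-0.26), and LAMB2, a chain of synapses and kidney that replaces beta1 in mature membranes, was at 121.3 and 141 TPM (0.22). LAMB1 was 1.58 times LAMB2 in DMSO and 1.13 times in CCA-1.1. The LAMB2 difference lay in NM_002292.4, at 81.8 and 101.5 TPM, while XM_005265127.5 was at 39.6 and 40.0 TPM. The pseudogene LAMB2P1 was at 2.48 and 2.94 TPM. LAMC1, the gamma chain shared by most laminins, was at 100.1 TPM with DMSO and 80.9 TPM with CCA-1.1 (-0.30). LAMC3 was at 0.12 and 0.05 TPM, and LAMB4 at 0.04 and 0.02 TPM.

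LAMB3 was the most abundant laminin chain in DMSO, at 202 TPM, and in CCA-1.1, at 194 TPM (-0.06). Its protein is known as a laminin chain of skin and other epithelia, as is that of LAMA3. LAMB3 was 90.8 times LAMA3 in DMSO and 72.8 times in CCA-1.1. Several transcripts shared this level, led by NM_001017402.2 at 118 and 119 TPM and NM_000228.3 at 56.1 and 45.0 TPM. LAMB3 lies on chromosome 1 from 209614870 to 209652425.

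Of 15 known laminin trimers, 10 had all chains at a mean of at least 1 TPM and 6 had all chains at a mean of at least 10 TPM, namely those of LAMA1, LAMA4 or LAMA5 with LAMB1 or LAMB2 and with LAMC1. In the trimers with LAMA5 the chain with the lowest level was LAMC1 in both libraries. In those with LAMA4 it was LAMA4, and in those with LAMA1 it was LAMA1.

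Promoter sequence is shown for the most negative integrin, for LAMB2 as a laminin chain that was higher with CCA-1.1, and for the LAMA3 and LAMB3 genes, whose levels stood so far apart. The sequences are from RefSeq on GRCh38.p14, 5′ to 3′ on the strand of the gene. For ITGB8 and LAMB2 they are the 250 bases before a start site, at chr7:20330650-20330899 (plus strand) and chr3:49133051-49133300 (minus strand). Capitals mark a GC box (GGGCGG on either strand) or a CCAAT box (CCAAT on either strand).
ITGB8: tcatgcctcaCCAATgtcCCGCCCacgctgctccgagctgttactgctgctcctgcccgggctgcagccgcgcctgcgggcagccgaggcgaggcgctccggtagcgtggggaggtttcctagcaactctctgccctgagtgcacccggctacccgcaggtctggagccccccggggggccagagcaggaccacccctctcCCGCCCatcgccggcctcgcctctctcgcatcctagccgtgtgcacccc
LAMB2: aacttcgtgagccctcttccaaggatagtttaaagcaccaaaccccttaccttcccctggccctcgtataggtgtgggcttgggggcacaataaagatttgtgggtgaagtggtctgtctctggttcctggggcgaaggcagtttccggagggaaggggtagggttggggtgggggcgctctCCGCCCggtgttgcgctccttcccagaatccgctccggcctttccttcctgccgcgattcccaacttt
For LAMA3 and LAMB3 the stretch around the AP-1 motif (TGANTCA, which reads the same on both strands) is given, with that motif alone in capitals. These stretches lie at chr18:23872873-23872979 (plus strand) and chr1:209651413-209651463 (minus strand). The LAMB3 start site was chosen because the motif lies before it.
LAMA3: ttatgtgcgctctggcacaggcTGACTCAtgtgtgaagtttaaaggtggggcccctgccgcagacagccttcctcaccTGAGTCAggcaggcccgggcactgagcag
LAMB3: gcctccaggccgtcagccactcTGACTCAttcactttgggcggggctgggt

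The motifs were counted in the 250 bases before each start site, for 22 windows of 16 of the 23 genes, and for all 35116 windows in the table. The AP-1 motif was found in 2 of the 22 windows, those of LAMA3 and LAMB3, against 6.57% of all windows. LAMA3 holds it 2 times, 125 and 69 bases before a start site. LAMB3 holds it 67 bases before 1 of its 3 start sites. The LAMA3 start site lies inside the gene, whose span on chromosome 18 is 23689453 to 23955066. The ITGB8 window and the LAMB3 stretch also lie inside the spans given above for these genes, so they are not upstream of the whole gene. Whether the measured transcripts of LAMA3, ITGB8 and LAMB3 begin at these start sites was not tested. A GC box was in 14 of the 22 windows, against 42.6% of all windows, and ITGB8 has 2 copies. A CCAAT box was in 3 of the 22 (ITGA10, ITGB8 and LAMB3), against 32%. TATAAA was in 1 (ITGB1), against 10.7%, and neither TGACGTCA nor CACGTG was found in the 22, against 1.65% and 6.34%. A match is a run of letters and does not show that a factor binds there.

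The genes around integrins and laminins were examined through 6 lists of 72 genes, of which 58 had a mean of at least 1 TPM. Of these 58, 39 were lower with CCA-1.1 and 19 higher (67.2% lower, against the 46.0% of all genes), 7 were more than 1.25-fold lower (12.1%, against 4.53% of all genes) and 0 were more than 1.25-fold higher (against 6.84%). Of the 72 genes, 1 passed 2-fold (ACTN4, below). The lists were chosen with earlier results of these data known, so these shares describe the lists and do not test them.

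The ligands of integrins other than laminins were lower for 11 of the 12 genes whose mean reached 1 TPM, with a median difference of -0.23, and 3 passed 1.25-fold downwards (25%, against 4.53% of all genes). FN1, which encodes fibronectin, the ligand of the ITGA5 and ITGB1 pair, was at 11241 TPM with DMSO and 9088 TPM with CCA-1.1 (-0.31). TNC, which encodes tenascin-C, a matrix protein of gliomas, was at 163 and 96.7 TPM (-0.74), with 4 of its 42 RefSeq transcripts in the table. EDIL3, an RGD ligand, was at 42.3 and 43.3 TPM (0.03) and was the exception.

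Laminin receptors other than integrins were lower for 4 of 5 genes, with a median of -0.30. The syndecan SDC4 was at 23.9 TPM with DMSO and 16.2 TPM with CCA-1.1 (-0.54). The glypican GPC1 was at 69.4 and 79.6 TPM (0.20) and was the highest of this list. Other basement membrane proteins were lower for 8 of 10 genes, with a median of -0.08. SPARC was the highest, at 792 and 733 TPM (-0.11). NID2, a nidogen that links laminin to collagen IV, was at 44.2 and 32.6 TPM (-0.43). NTN4, which encodes netrin-4, a protein that disrupts laminin networks, was at 14.4 and 18.2 TPM (0.32).

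The list of adhesion proteins at or near integrin tails was divided in direction. Of 17 adhesion genes whose mean reached 1 TPM, 9 were lower and 8 higher, with a median of -0.0045. FLNA, the actin crosslinker filamin A, was at 378 and 383 TPM (0.02). TLN1, which encodes talin, the activator of integrins, was at 187 TPM with DMSO and 153 TPM with CCA-1.1 (-0.29), and the kindlin FERMT3 was at 7.21 and 8.88 TPM (0.27). ACTN4, an alpha-actinin, was at 1.19 TPM with DMSO and listed at 0 in CCA-1.1 (-1.13), with 2 of its 7 RefSeq transcripts in the table and a mean below 1 TPM. The list of inhibitors and trafficking genes had 2 of 6 genes lower and a median of 0.05. SHARPIN was at 109.4 and 109.3 TPM (-0.0017), KRIT1 at 14.1 and 15.8 TPM (0.15), and ITGB1BP1 at 79.8 and 79.3 TPM (-0.01).

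Among tetraspanins and other membrane partners of integrins, 5 of 8 genes were lower, with a median of -0.09. The tetraspanin CD63 was highest, at 2218 TPM with DMSO and 2048 TPM with CCA-1.1 (-0.12), with 8 of its 16 RefSeq transcripts in the table. CD82, a tetraspanin known for restraining cell migration, was at 130.1 and 102.5 TPM (-0.34), and SLC3A2, which encodes the integrin-binding chain of CD98, was at 161 and 187 TPM (0.22).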

How the data were processed

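RNA of U87 cells was sequenced in 2 libraries, 1 per treatment. The deposited table holds TPM per RefSeq transcript, which the authors obtained with Kallisto on GRCh38.p14, and the submitters' processing notes name FastQC 0.11.9 and MultiQC 1.1. TPM keep no read depth, so counting error is unknown, and values are rounded to 2 decimals. Of 177816 transcripts, 169966 were matched to genes by RefSeq accession without version, and TPM were summed per gene. Differences used a pseudocount of 1 TPM, and a mean of at least 1 TPM was required for medians and directions. The text names every subunit, and of each linked list the highest gene, the largest differences in each direction and any gene past 2-fold. The members and lists were chosen with earlier results of these data known. Alternatives were other pseudocounts, other minimums, median-ratio scaling, curated transcripts and versioned identifiers. Scripts (Python 3.11.15, numpy 2.4.6, pandas 2.3.3, matplotlib 3.10.9) were tested on simulated data. Strand was not stated, so reads from sequence that overlapping genes share cannot be assigned by strand. Values of 1 member and 1 marker are not reported here, although counts, medians and sums over the lists include them.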

Additional observations from a re-analysis of the deposited data

How the results depend on the processing

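No paired analysis was possible because each treatment had 1 library, and for the same reason no library could be left out. The number of integrin and laminin genes past 2-fold was 1 with a pseudocount of 0.1 TPM (ITGB7), 5 with 0.01 TPM (ITGA8, ITGA2B, ITGB2, ITGB7 and LAMC3, all below 1 TPM) and 1 with curated transcripts alone (ITGA10). The median difference of the members was -0.0602 when no minimum level was applied, against -0.19. Their transcripts past 2-fold numbered 39 and 68 with pseudocounts of 0.1 and 0.01 TPM, 5 and 0 with minimum means of 1 and 10 TPM, and 4 with curated transcripts alone. Linked genes past 2-fold numbered 6 with a pseudocount of 0.01 TPM and 0 with either minimum. The shares over all protein-coding genes and transcripts were not calculated at these other settings. These counts therefore cannot be set against the shares given above, and they do not show that the members stand out. ITGAV turned from -0.02 to 0.000442 with curated transcripts alone. The ITGAV transcript left out by that setting was the predicted XM_047444225.1, at 8.87 TPM with DMSO and 6.33 TPM with CCA-1.1. Why that transcript differed was not tested. Median-ratio scaling and versioned identifiers moved none of the 23 genes by more than 0.05. Curated transcripts alone moved 9 genes by more than 0.05 and reversed 1, ITGAV. Among the 9, ITGA2 went from -0.45 to -0.60, ITGA7 from -0.34 to -0.43, LAMA4 from -0.55 to -0.62 and LAMB2 from 0.22 to 0.31. Pseudocounts of 0.1 and 0.01 TPM moved 4 genes each.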
